A study of Mus musculus with 12 samples.

Results

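The 10 genes described here carry the signals by which blood vessels grow and hold together: the ligands Vegfa, Angpt1, Angpt2 and Apln, the receptors Kdr, Flt1, Tek and Aplnr, and the endothelial junction proteins Pecam1 and Cdh5. They were taken by name from a table of 13552 genes in mouse hearts, and each name matched 1 row. In transverse aortic constriction (TAC) a band is tied around the aortic arch, so that the left ventricle has to work against a raised pressure, and in sham mice the chest is opened but no band is tied. Hearts of adult male C57BL/6 mice (C57BL/6J in the study's methods) were collected 9 h after surgery. Wild-type (WT) and knock-in (KI) mice each had a sham and a TAC group, which makes 4 groups of 3 mice. KI mice are homozygous for Bcl-xL S14A, in which serine 14 of the survival protein Bcl-xL is replaced by alanine so that it cannot be phosphorylated. WT mice were bought in, whereas the KI line was bred by the authors after its selection cassette had been removed with a CMV-Cre, so origin and genotype cannot be told apart. RNA came from heart tissue, not from sorted endothelial cells, so fewer cells of a type and less RNA per cell cannot be told apart in any value below. A table of gene levels does not show a changed codon, so it gives no check of the genotype labels.

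Vascular endothelial growth factor A (Vegfa), made in the heart largely by cardiomyocytes, binds 2 receptor tyrosine kinases on endothelium. Kdr (VEGF receptor 2) passes on the growth signal, and Flt1 (VEGF receptor 1) binds the ligand tightly and limits it. Angiopoietin 1 (Angpt1), made mostly by cells around the vessel, activates the endothelial receptor Tek (Tie2) and keeps vessels quiescent, whereas angiopoietin 2 (Angpt2), released by endothelium, mostly opposes it. Apelin (Apln) signals through the G protein-coupled receptor Aplnr, which in the heart is known for endothelial, endocardial and inotropic roles. Cdh5 (VE-cadherin) and Pecam1 (CD31) join endothelial cells to each other and serve as markers of endothelium.

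The stretches directly upstream of 3 of these genes are shown so that the ligand with the highest level, its receptor and the angiopoietin receptor can be set side by side. They are the 250 bases before the RefSeq start in build GRCm38.p6, on the strand of the gene, and hold no annotated exon. Capitals mark GGAA, the core bound by ETS factors that drive many endothelial genes, or TTCC, its reverse complement.
Vegfa, chr17:46032378-46032627, minus strand: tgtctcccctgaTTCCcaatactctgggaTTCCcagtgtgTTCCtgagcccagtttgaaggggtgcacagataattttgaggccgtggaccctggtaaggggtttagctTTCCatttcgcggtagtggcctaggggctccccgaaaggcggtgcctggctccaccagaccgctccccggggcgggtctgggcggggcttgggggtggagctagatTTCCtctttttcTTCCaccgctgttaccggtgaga
Flt1, chr5:147726012-147726261, minus strand: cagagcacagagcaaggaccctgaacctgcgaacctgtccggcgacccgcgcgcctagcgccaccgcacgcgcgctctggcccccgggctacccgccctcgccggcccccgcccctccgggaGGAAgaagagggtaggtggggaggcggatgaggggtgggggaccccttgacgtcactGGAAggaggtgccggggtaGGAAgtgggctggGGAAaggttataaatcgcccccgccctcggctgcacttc
Tek, chr4:94739039-94739288, plus strand: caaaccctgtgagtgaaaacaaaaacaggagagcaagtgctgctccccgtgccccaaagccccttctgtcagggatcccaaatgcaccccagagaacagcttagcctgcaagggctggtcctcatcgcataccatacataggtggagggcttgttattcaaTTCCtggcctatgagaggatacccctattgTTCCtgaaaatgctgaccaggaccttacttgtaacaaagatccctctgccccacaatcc
The core was found 6 times upstream of Vegfa, 4 times upstream of Flt1 and 2 times upstream of Tek. Of all RefSeq windows of this length, 93.4% held it on either strand, so its presence does not set these genes apart. The core ACGTG, which hypoxia-inducible factors bind, was in none of these 3 windows and in 16.6% of all windows, both strands searched. A window upstream of another RefSeq start of Vegfa (chr17:46025164-46025413), not shown because 218 of its 250 bases are annotated as exon, held it 1 time.

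The values are RPKM, that is read counts divided by exon length and by the size of the library, so levels can be compared between genes. The libraries held 23650194 to 32455178 reads on genes, recovered from the step size of the values. Vegfa and Cdh5 had the highest levels of the 10, with 76.0 to 130 RPKM and 88.5 to 140 RPKM over the 12 mice, and their ranges overlapped. Kdr (21.1 to 47.4 RPKM) and Pecam1 (22.2 to 39.5 RPKM) followed, also with overlapping ranges. Flt1 lay between 8.81 and 19.5 RPKM, Tek between 5.34 and 13.9, Aplnr between 1.67 and 20.3 and Apln between 2.196 and 19.5, and these 4 overlapped each other. Angpt1 (0.723 to 3.59 RPKM, 114 to 553 reads a library) and Angpt2 (0.444 to 1.17 RPKM, 40 to 131 reads) were the lowest. Angpt2 was the 1 member that did not reach 1 RPKM in at least 3 mice and was left out of the test across genes.

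**Figure D1:**
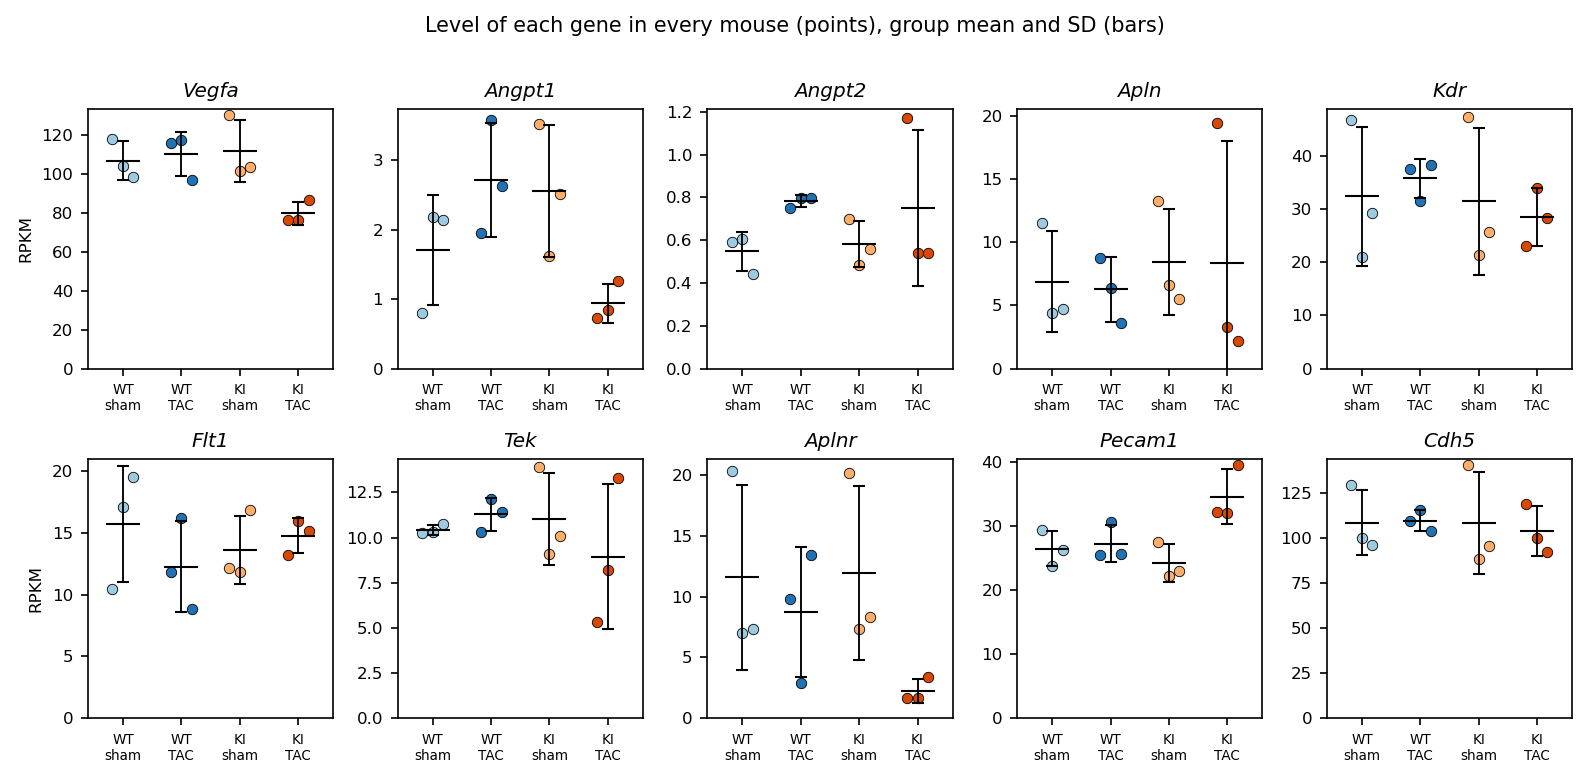
RPKM (linear axis from 0) of each of the 10 genes in every mouse of the 4 groups; a point is a mouse, the horizontal bar the group mean and the error bar the SD over 3 mice (the bar of Apln in KI TAC hearts is cut at 0). The 3 KI TAC hearts lie below all KI sham hearts for Vegfa, Angpt1 and Aplnr and above them for Pecam1.

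Whether pressure overload changed these genes was tested within each genotype, with limma on log2(RPKM + 1) over 11240 genes and Benjamini-Hochberg adjustment over all of them; this scale understates the change of low genes. In WT hearts 0 of the 9 tested members passed an adjusted p of 0.05, while 11.6% of all genes tested did (6.96% higher and 4.60% lower after TAC). In KI hearts 2 of 9 passed, Aplnr and Angpt1, both lower after TAC, beside 23.3% of all genes (8.57% higher, 14.7% lower). Between the TAC groups 1 of 9 passed, Angpt1, lower in KI hearts, beside 11.0% of all genes (2.92% higher, 8.13% lower in KI). The counts are close to or below these shares. Between the sham groups 0 of 9 passed, beside 0.0178% of all genes. The interaction of genotype and surgery tests whether the TAC response differed between genotypes. It passed for 0 of 9 members and for 0% of all genes, with 1668 genes at an unadjusted p under 0.05. The count over all genes depended on single hearts. It rose to 240 when WT TAC mouse 9 was dropped, to 182 when KI TAC mouse 7 was, and to 8 when WT TAC mouse 10 was. Dropping any other single mouse left it at 0, and no member passed in any of these fits. At an unadjusted p under 0.05 in limma, 0 of 9 members passed in WT hearts (27.9% of all genes tested), 4 in KI hearts (36.8%), 3 between TAC groups (30.3%), 0 between sham groups (0.329%) and 2 for the interaction (14.8%). By limma-voom on the recovered reads the members' counts were 0 in WT (11.3% of all genes in that fit), 3 in KI (24.2%), 1 between TAC groups (11.8%), 0 between sham groups (0.0178%) and 0 for the interaction (0%). The median of all genes differed by −0.10 on the log2 scale between KI TAC and KI sham and by −0.12 between KI TAC and WT TAC, and lay at 0.03 for both once each library was scaled by its median ratio. With that scaling the calls over all genes in KI hearts went from 963 higher and 1657 lower to 1556 higher and 1271 lower. Between TAC groups they went from 328 higher and 914 lower in KI to 753 higher and 533 lower. With the trend along exon length removed, as described below, they were 627 higher and 634 lower between TAC groups.

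**Figure D2:**
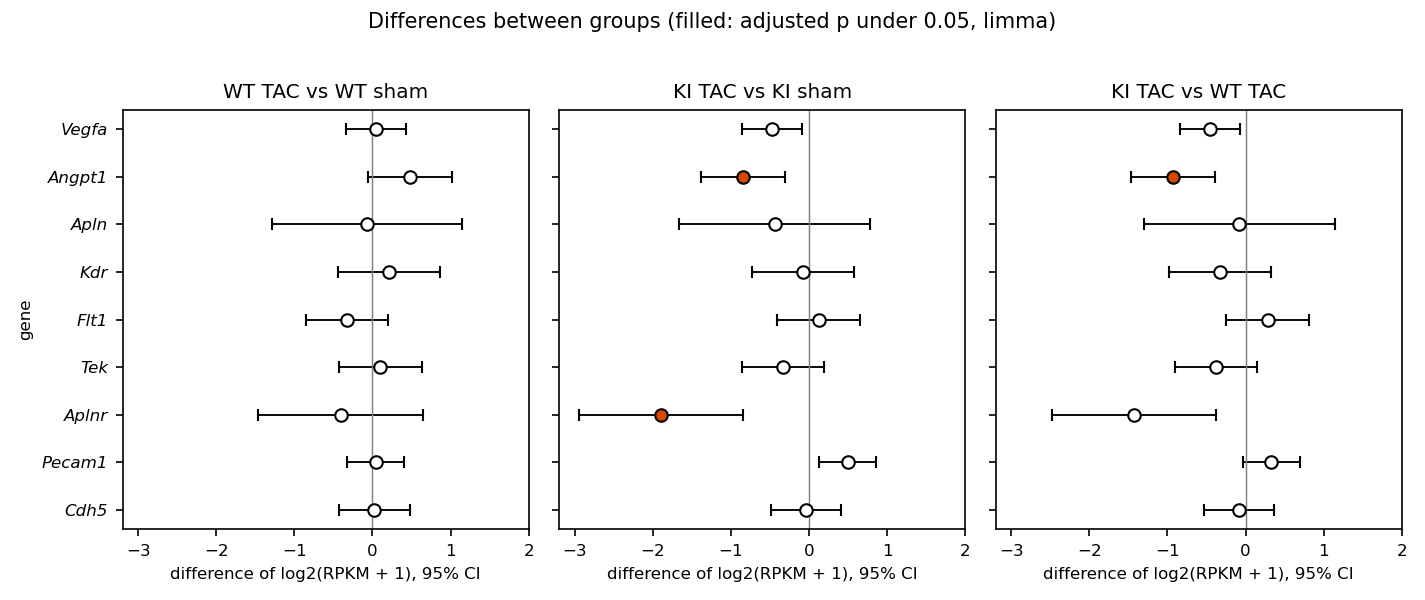
Difference of log2(RPKM + 1) between groups for the 9 tested genes, with 95% confidence intervals from limma; filled points passed an adjusted p of 0.05. Aplnr and Angpt1 are filled in KI TAC against KI sham, Angpt1 in KI TAC against WT TAC, and no point in WT TAC against WT sham.

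Among the ligands, Vegfa (ENSMUSG00000023951, chromosome 17, 46016993 to 46032369 of GRCm38) was 118, 104 and 98.2 RPKM in WT sham hearts and 116, 117 and 96.9 RPKM in WT TAC hearts. It was 130, 101 and 103 RPKM in KI sham hearts and 76.1, 76.0 and 86.5 RPKM in KI TAC hearts. In RPKM as deposited each KI TAC heart was thus below each heart of the other 3 groups, while those 3 groups overlapped. Once each library was scaled by its median ratio, KI TAC hearts (82.6 to 93.3) were still below KI sham hearts (98.2 to 125) but overlapped with WT TAC hearts (83.5 to 121). The difference between KI TAC and KI sham was −0.48 on the log2 scale (standard error 0.18, adjusted p = 0.0675 from limma) and that between KI TAC and WT TAC −0.46 (adjusted p = 0.104), so neither passed the test. With median-ratio scaling they were −0.31 (adjusted p = 0.220) and −0.26 (adjusted p = 0.333), and with quantile normalization −0.51 (adjusted p = 0.0479) and −0.53 (adjusted p = 0.0687). In RPKM as deposited, 38.3% of all genes tested did not overlap between KI TAC and KI sham hearts and 29.5% not between KI TAC and WT TAC hearts, against 4 and 3 of the 10 members. With median-ratio scaling 4 and 2 members did not overlap, and the shares of all genes under that scaling were not counted. In WT hearts the difference was 0.04 with a 95% interval from −0.34 to 0.43.

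Angpt1 (ENSMUSG00000022309, chromosome 15, 42424723 to 42676977) was 0.795, 2.18 and 2.15 RPKM in WT sham hearts, 1.95, 3.59 and 2.63 RPKM in WT TAC hearts and 3.52, 1.62 and 2.52 RPKM in KI sham hearts. In KI TAC hearts it was 0.723, 0.843 and 1.26 RPKM. All 3 KI TAC hearts lay below all KI sham and all WT TAC hearts, and 2 of them lay above WT sham mouse 1. Angpt1 fell by 0.85 on the log2 scale in KI hearts after TAC (standard error 0.25, adjusted p = 0.0264 from limma). Among TAC hearts it was lower in KI by a log2 difference of −0.92 (standard error 0.25, adjusted p = 0.0332). In WT hearts the difference between TAC and sham was 0.48 with a 95% interval from −0.05 to 1.02, and the interaction was −1.33 (unadjusted p = 0.00215, adjusted p = 0.150 from limma). Without WT sham mouse 1, the lowest WT heart, these were 0.21 and −1.06, and without both sham mice numbered 1 the interaction was −0.87 (adjusted p = 0.365). With a pseudocount of 0.1 or limma-voom, which shrink low genes less, the differences of Angpt1 were −1.32 and −1.39 in KI hearts and −1.43 and −1.53 between TAC groups, and the interaction was −2.04 and −2.20. The call between TAC groups was lost with quantile normalization (−0.75, adjusted p = 0.0713), median-ratio scaling (−0.82, adjusted p = 0.0578) and a fit of only the 2 groups (adjusted p = 0.0526), and under the same 2 scalings the adjusted p in KI hearts was 0.0492 and 0.0496. The call in KI hearts was lost without KI sham mouse 1 (−0.65, adjusted p = 0.1002 from limma), KI sham mouse 3 (adjusted p = 0.0777), KI TAC mouse 5 (0.0844) or KI TAC mouse 6 (0.0749). That between TAC groups was lost without WT TAC mouse 7 (adjusted p = 0.0699), 9 (0.0720) or 10 (0.0653), or without KI TAC mouse 5 (0.0877) or 6 (0.118). A noncoding antisense gene, which is no row of the table used here, shares 737 of the 5205 exon bases of Angpt1, and whether counting used strand is not given in the sources used here.

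Long and short transcripts moved apart between the libraries, and this ran along with the groups of TAC hearts. The median log2 deviation of genes with at least 6000 exon bases minus that of genes under 2000 was 0.17, 0.24 and 0.19 in WT TAC hearts and −0.10, −0.18 and −0.19 in KI TAC hearts, and spread from −0.41 to 0.24 among sham hearts. With the trend along exon length removed from each library, Angpt1 differed by −0.71 between KI TAC and KI sham (adjusted p = 0.0598 from limma) and by −0.75 between TAC groups (adjusted p = 0.0763). Aplnr still passed in KI hearts (−1.79, adjusted p = 0.0169).

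Angpt2 (ENSMUSG00000031465, chromosome 8, 18690263 to 18741562) was 0.590, 0.607 and 0.444 RPKM in WT sham hearts and 0.748, 0.796 and 0.799 RPKM in WT TAC hearts. It was 0.699, 0.485 and 0.559 RPKM in KI sham hearts and 1.17, 0.539 and 0.541 RPKM in KI TAC hearts. Every WT TAC heart was above every WT sham heart, while the KI groups overlapped. Angpt2 was the 1 member of 10 without overlap in WT hearts, beside 35.1% of all genes tested. The exact permutation test gave a two-sided p of 0.1 in WT hearts, which is the smallest that 3 against 3 mice allow, and 0.7 in KI hearts. Fitted with no filter, the log2 difference in WT hearts was 0.20 (adjusted p = 0.310 from limma). The ratio of Angpt1 to Angpt2, agonist to mostly antagonist of Tek, was 3.26 ± 1.77 in WT sham, 3.47 ± 0.963 in WT TAC and 4.30 ± 0.865 in KI sham hearts, and 1.503 ± 0.858 in KI TAC hearts (SD, n = 3 each). The KI TAC ratios, 0.617 to 2.33, lay below those of KI sham (3.35 to 5.04) and WT TAC hearts (2.61 to 4.51), with an exact two-sided permutation p of 0.1 for both. They overlapped with the ratios of WT sham hearts (1.35 to 4.84).

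Apln (ENSMUSG00000037010, chromosome X, 48025146 to 48034853) varied more within groups than between them. It was 11.5, 4.38 and 4.73 RPKM in WT sham hearts, 8.76, 6.40 and 3.61 RPKM in WT TAC hearts, 13.2, 6.58 and 5.53 RPKM in KI sham hearts and 19.5, 3.31 and 2.196 RPKM in KI TAC hearts. KI TAC mouse 5 thus held the highest and KI TAC mouse 7 the lowest level of all 12 hearts. The differences of TAC and sham were −0.07 in WT (95% interval −1.29 to 1.15) and −0.44 in KI hearts (−1.66 to 0.78) on the log2 scale, wide intervals that leave changes of either direction possible.

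Of the receptors, Aplnr (ENSMUSG00000044338, chromosome 2, 85136225 to 85139923) showed the largest difference of the 9 tested members. It was 20.3, 7.03 and 7.38 RPKM in WT sham hearts and 9.82, 2.92 and 13.4 RPKM in WT TAC hearts, which overlapped. It was 20.1, 7.35 and 8.31 RPKM in KI sham hearts and 1.69, 1.67 and 3.40 RPKM in KI TAC hearts. Each KI TAC heart was below each KI sham heart, and the highest of them was above WT TAC mouse 9. Aplnr fell by 1.90 on the log2 scale in KI hearts (standard error 0.49, 95% interval −2.95 to −0.85, adjusted p = 0.0136 from limma). In WT hearts the difference was −0.41 (95% interval −1.46 to 0.64, adjusted p = 0.622). Between TAC groups it was −1.43 (adjusted p = 0.0735) and the interaction was −1.49 (unadjusted p = 0.0496, adjusted p = 0.335 from limma), so the TAC response was not shown to differ between genotypes. The call in KI hearts was lost without KI sham mouse 1, the highest KI heart (−1.48, adjusted p = 0.0580), and the difference between TAC groups passed without WT TAC mouse 9, the lowest WT heart (−1.98, adjusted p = 0.0127).

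Markers of endocardium, the inner lining of the heart chambers, were lowest in 2 of the 3 KI TAC hearts. The 6 listed markers, among them Nfatc1, Npr3 and Vwf, summed to 110.9 to 145 RPKM in WT sham, 142 to 204 RPKM in WT TAC, 109 to 128 RPKM in KI sham and 63.3 to 139 RPKM in KI TAC hearts. In KI hearts 1 of 6 passed the test, lower after TAC (Nfatc1), beside 14.7% of all genes tested, and 2 of 6 were lower in KI than in WT TAC hearts (Nfatc1 and Gata4), beside 8.13%. The summed level of 18 other endothelial identity genes overlapped in all groups (467 to 563 RPKM in WT sham, 408 to 632 in WT TAC, 525 to 587 in KI sham and 477 to 604 in KI TAC hearts). Relative to the mean of those 18 genes, Aplnr was lower by −1.97 after TAC in KI hearts (adjusted p = 0.00801 from limma) and Angpt1 by −0.91 (adjusted p = 0.0379). RNA of the whole heart does not show whether Gata4, Vwf and the other listed markers came from endocardium alone. The part of endocardium in the level of Aplnr was not tested.

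The VEGF receptors and Tek did not pass the test in either genotype. Kdr (ENSMUSG00000062960, chromosome 5, 75932827 to 75978458) was 32.5 ± 13.2 RPKM in WT sham, 35.9 ± 3.68 in WT TAC, 31.5 ± 13.9 in KI sham and 28.6 ± 5.45 in KI TAC hearts (SD, n = 3 each), and its log2 difference after TAC was 0.21 in WT (95% interval −0.44 to 0.86) and −0.07 in KI hearts (−0.73 to 0.58). Flt1 (ENSMUSG00000029648, chromosome 5, 147561604 to 147726011) was 15.7 ± 4.68, 12.3 ± 3.70, 13.6 ± 2.77 and 14.8 ± 1.40 RPKM in the same order of groups, with log2 differences of −0.33 (−0.86 to 0.20) and 0.12 (−0.41 to 0.65). The WT value for Flt1 was −0.58 without WT sham mouse 1 and −0.13 without WT TAC mouse 10. Tek (ENSMUSG00000006386, chromosome 4, 94739289 to 94874976) was 10.4 ± 0.288, 11.3 ± 0.912, 11.0 ± 2.53 and 8.96 ± 4.03 RPKM. Its spread was widest in KI TAC hearts, where mouse 5 had 5.34, mouse 6 had 8.22 and mouse 7 had 13.3 RPKM, and its log2 difference in KI hearts was −0.33 (−0.86 to 0.20). The KI difference of Tek depended on single hearts: it was −0.046 without KI TAC mouse 5 (adjusted p = 0.914 from limma), −0.17 without KI sham mouse 1 (adjusted p = 0.698) and −0.63 without KI TAC mouse 7 (adjusted p = 0.0426). Between TAC groups it was −0.38 (adjusted p = 0.309), −0.097 without KI TAC mouse 5 (adjusted p = 0.804) and −0.68 without KI TAC mouse 7 (adjusted p = 0.0430). The ratio of Kdr to Flt1 was 2.41 ± 1.798 in WT sham, 3.17 ± 1.20 in WT TAC, 2.41 ± 1.29 in KI sham and 1.92 ± 0.196 in KI TAC hearts (SD, n = 3 each), and all groups overlapped.

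The junction genes Pecam1 and Cdh5 are the endothelial markers of the set. Pecam1 (ENSMUSG00000020717, chromosome 11, 106654217 to 106750628) was 29.3, 23.8 and 26.2 RPKM in WT sham hearts, 25.5, 30.6 and 25.6 RPKM in WT TAC hearts, 27.6, 22.2 and 22.9 RPKM in KI sham hearts and 32.2, 32.1 and 39.5 RPKM in KI TAC hearts. Each KI TAC heart was above each heart of the other groups. The difference after TAC in KI hearts was 0.50 on the log2 scale (standard error 0.17, adjusted p = 0.0502 from limma), at the threshold, and that between TAC groups was 0.33 (adjusted p = 0.206). In KI hearts it passed under median-ratio scaling (0.66, adjusted p = 0.0122 from limma), under quantile normalization (0.52, adjusted p = 0.0275) and with the exon length trend removed (0.64, adjusted p = 0.00724), where the difference between TAC groups also passed (0.52, adjusted p = 0.0385). With a pseudocount of 0.1, no filter or limma-voom its adjusted p in KI hearts lay between 0.0464 and 0.0498, and without single mice between 0.0439 and 0.158. Cdh5 (ENSMUSG00000031871, chromosome 8, 104101625 to 104144511) was 108 ± 17.99 RPKM in WT sham, 109.5 ± 5.82 in WT TAC, 108 ± 28.2 in KI sham and 104 ± 13.6 in KI TAC hearts (SD, n = 3 each). Its log2 difference after TAC was 0.03 in WT (95% interval −0.42 to 0.48) and −0.04 in KI hearts (−0.49 to 0.41), whose sign turned under several settings.

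Sham mouse 1 had the highest level of its group in both genotypes for 6 of the 10 genes, Vegfa, Kdr, Apln, Aplnr, Pecam1 and Cdh5, beside 14.7% of all genes tested. For 3 of them mouse 1 was at least 1.5 times the mean of the other sham mice in both genotypes, beside 1.53% of all genes tested. Aplnr was 2.82 times that mean in WT and 2.57 times in KI sham hearts, Apln 2.52 and 2.19 times and Kdr 1.86 and 2.01 times. Flt1 went the other way, at 0.573 and 0.851 times the mean of the others. Over all genes, the deviations of the sham mice numbered 1 from their group means did not run together in the 2 genotypes (r = −0.22). Without both sham mice numbered 1, the log2 difference of Aplnr in KI hearts was −1.48 (adjusted p = 0.0349 from limma). It was also −1.48 without KI sham mouse 1 alone, where it did not pass (adjusted p = 0.0580). Between TAC groups, which hold no sham mouse, the difference stayed at −1.43 while its adjusted p became 0.0362. The fit shares 1 estimate of the spread over all groups, and leaving out these mice changed that estimate.

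**Figure D3:**
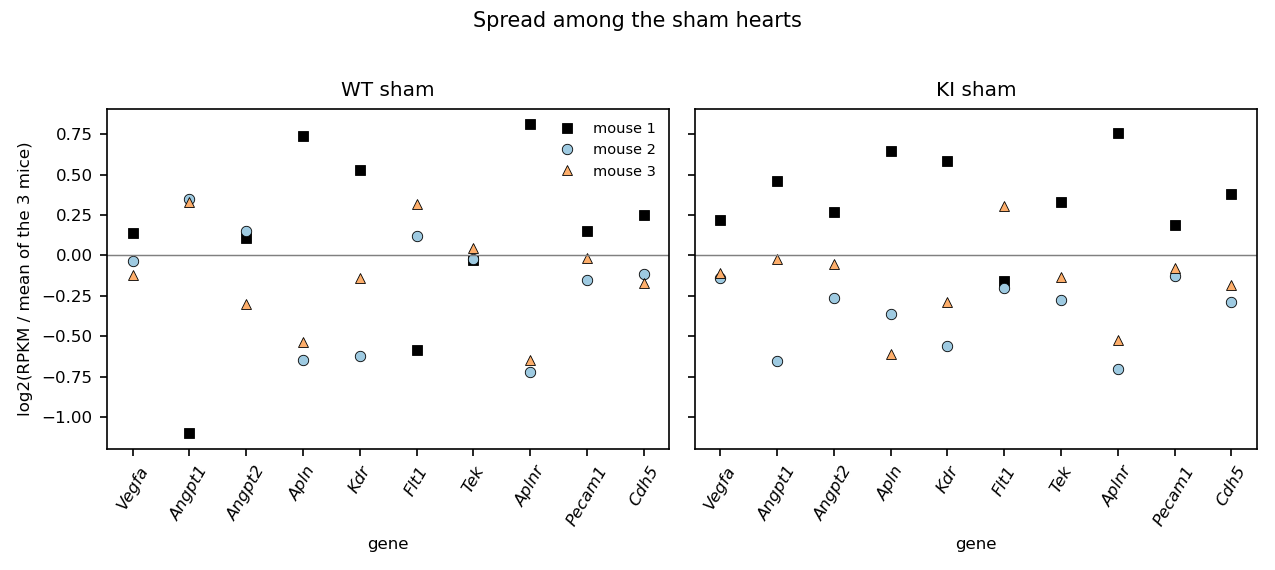
Level of each of the 10 genes in every sham mouse, as log2 of its RPKM over the mean of the 3 mice of its group, for WT (left) and KI (right). Mouse 1 (black squares) stands above the others for Apln, Kdr, Aplnr and Cdh5 in both panels.

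As a description over 12 mice, which share the group differences, the levels of the members ran together in few pairs. Pearson's r on log2(RPKM + 1) was highest for Vegfa and Aplnr (0.765), Apln and Cdh5 (0.741) and Kdr and Cdh5 (0.675), and lowest for Flt1 with Aplnr (−0.513). The ligand Apln and its receptor Aplnr gave 0.213, and Angpt1 and Tek 0.663. The genes most like Aplnr were Klhdc7a (r = 0.978), Wnt5a (0.967) and Ttc30a1 (0.961). Those most like Vegfa were Cog1 (0.942), Adra1b (0.941) and Cxxc5 (0.940), and those most like Angpt1 were Megf9 (0.925), Iigp1 (0.923) and Twsg1 (0.914). Pecam1 was followed most closely by Arrdc4 (0.927), Steap4 (0.915) and Kctd3 (0.914).

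The other genes of these pathways were read from lists. Their counts stand beside 6.96% of all genes higher and 4.60% lower after TAC in WT hearts, and 8.57% higher and 14.7% lower in KI hearts. List genes are given from the main fit only, with neither median-ratio scaling nor the exon length trend removed. Of those named as lower in KI hearts, Notch3, Angptl2, Unc5b and Nid2 have 5174 to 8089 exon bases, and Sox7, Hey1 and Fgf16 have 1645 to 3299. Of the 6 tested other VEGF ligands and receptors, 0 passed in WT hearts and 1 in KI hearts. This was Pgf, placental growth factor, a ligand of Flt1, at 1.63, 1.69 and 1.23 RPKM in WT sham hearts and 0.95, 2.52 and 1.05 RPKM in WT TAC hearts. It was 1.32, 1.51 and 1.66 RPKM in KI sham and 16.8, 7.41 and 6.42 RPKM in KI TAC hearts, so that each KI TAC heart was above each other heart. Pgf rose by 2.05 on the log2 scale in KI hearts (standard error 0.29, adjusted p = 0.000349 from limma) and was higher in KI than in WT TAC hearts by 2.10 (adjusted p = 0.00395), with an interaction of 2.11 (adjusted p = 0.0988). The median log2 difference of the list was 0.14 in WT and −0.19 in KI hearts, beside 0.04 and −0.10 over all genes tested. Of the 4 tested other genes of the angiopoietin and apelin list, Angptl4, a secreted inhibitor of lipoprotein lipase, rose in both genotypes (log2 difference 2.42 in WT, adjusted p = 0.00935, and 2.22 in KI, adjusted p = 0.00765, from limma). Angptl2 fell by 0.79 in KI hearts (adjusted p = 0.0122) and differed by −0.03 in WT hearts (adjusted p = 0.937), with an interaction of −0.76 (adjusted p = 0.248).

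Of 18 endothelial identity genes, 1 passed in WT hearts and 2 in KI hearts, all higher after TAC, with list medians of −0.02 and −0.10 beside 0.04 and −0.10 over all genes. Ecscr, an endothelial surface protein, rose after TAC in WT hearts by 0.80 (limma, adjusted p = 0.0129) and in KI hearts by 0.996 (adjusted p = 0.00184). Esam, a tight junction adhesion molecule, was 27.0 ± 1.81 RPKM in KI sham and 44.0 ± 2.88 RPKM in KI TAC hearts, a rise of 0.69 (adjusted p = 0.0195), and 27.7 ± 5.91 and 25.9 ± 4.81 RPKM in WT sham and WT TAC hearts (SD, n = 3 each). Of 14 endothelial transcription factors, 0 passed in WT hearts and 1, Sox7, fell in KI hearts (−1.13, adjusted p = 0.00856). The interaction did not pass for Esam (adjusted p = 0.223 from limma) or Sox7 (0.273). Of 11 genes of the Notch pathway, which restrains sprouting, 0 passed in WT hearts, and the receptor Notch3 (−0.61, adjusted p = 0.0386) and the target Hey1 (−0.76, adjusted p = 0.00942) fell in KI hearts, beside 14.7% of all genes. The interaction did not pass for Notch3 (adjusted p = 0.195 from limma) or Hey1 (0.380). Notch3 is also a marker of mural cells. The Notch list medians were 0.15 in WT and −0.36 in KI hearts, beside 0.04 and −0.10 over all genes.

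Of 10 tested tip cell and sprouting genes, Plaur, the urokinase receptor, and Mcam rose in both genotypes. The log2 rise of Plaur was 1.66 in WT (limma, adjusted p = 0.00262) and 2.68 in KI hearts (adjusted p = 5.76e-05), and Mcam by 1.01 (adjusted p = 0.0213) and 1.02 (adjusted p = 0.0115). The netrin receptor Unc5b fell in KI hearts (−1.12, adjusted p = 0.0104) and differed by 0.67 in WT hearts (adjusted p = 0.133), with an interaction of −1.79 (adjusted p = 0.0988). The basement membrane gene Nid2 fell by 0.74 in KI hearts (adjusted p = 0.0484). Of 7 genes of endothelial activation, 4 rose in WT and 5 in KI hearts, with list medians of 0.86 and 1.44. They included the chemokine Ccl2 (log2 difference 3.06 in WT and 3.74 in KI), the leukocyte adhesion molecules Sele (1.54 and 1.64) and Icam1 (0.86 and 1.44), and in KI hearts Cxcl1 (2.16). In WT hearts Cxcl1 differed by 0.80 (adjusted p = 0.0758 from limma). Neutrophil markers rose with them: 2 of the 3 in the table in WT and 3 of 3 in KI hearts, summing to 0.508 to 1.27 RPKM in WT sham, 3.69 to 9.87 in WT TAC, 0.395 to 0.505 in KI sham and 4.18 to 20.3 in KI TAC hearts. Their part in these genes was not tested.

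Of 15 hypoxia-inducible factors and targets, 3 were higher and 1 lower in WT hearts, and 4 higher and 1 lower in KI hearts, with list medians of 0.0049 and 0.35. Hmox1, which breaks down heme, rose by 1.54 in WT and 2.56 in KI hearts (adjusted p = 0.000429 and 1.07e-05 from limma). The glucose transporter Slc2a1 rose by 0.91 and 0.92 (adjusted p = 0.0415 and 0.0240). Hif1a itself rose by 1.19 and 0.75 (adjusted p = 0.00892 and 0.0450). Ddit4 fell by 1.40 in WT hearts (adjusted p = 0.0497) and differed by 0.50 in KI hearts (adjusted p = 0.430). Vegfa, a textbook target of the same factors, is described above and is not counted in the list. Of 8 tested inhibitors of angiogenesis, 2 rose in each genotype. The secreted inhibitor Thbs1 was 1.33 ± 0.244 RPKM in WT sham, 26.8 ± 7.76 in WT TAC, 1.97 ± 1.56 in KI sham and 105 ± 74.0 in KI TAC hearts (SD, n = 3 each), a rise of 3.55 (adjusted p = 0.000280) and 5.05 (adjusted p = 1.27e-05). The protease Adamts1 rose by 3.61 in KI hearts (adjusted p = 0.000497) and differed by 1.67 in WT hearts (adjusted p = 0.0574). Col18a1, the source of endostatin, rose by 0.75 in WT hearts (adjusted p = 0.0436) and differed by −0.10 in KI hearts (adjusted p = 0.766).

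Of 9 tested growth factor genes of the FGF, PDGF and EGF families and their receptors, 3 rose in WT hearts, and 1 rose and 1 fell in KI hearts. Hbegf, a ligand of the EGF receptor, rose by 2.50 in WT and 4.23 in KI hearts (adjusted p = 0.00930 and 0.000186 from limma). Fgf18 was 5.24, 3.03 and 3.62 RPKM in WT sham hearts and 20.8, 23.2 and 10.3 RPKM in WT TAC hearts, and 6.86, 4.72 and 3.74 RPKM in KI sham and 5.26, 5.82 and 4.996 RPKM in KI TAC hearts. It rose by 1.89 in WT hearts (adjusted p = 0.000971) and differed by 0.09 in KI hearts (adjusted p = 0.845), with an interaction of −1.805 (adjusted p = 0.0988). Fgf2, a strong angiogenic factor, rose by 0.77 in WT hearts (adjusted p = 0.0152) and differed by 0.44 in KI hearts (adjusted p = 0.0966), with an interaction of −0.33 (adjusted p = 0.543). Fgf16 fell by 1.14 in KI hearts (adjusted p = 0.0266) and differed by −0.16 in WT hearts (adjusted p = 0.797).

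**Figure D4:**
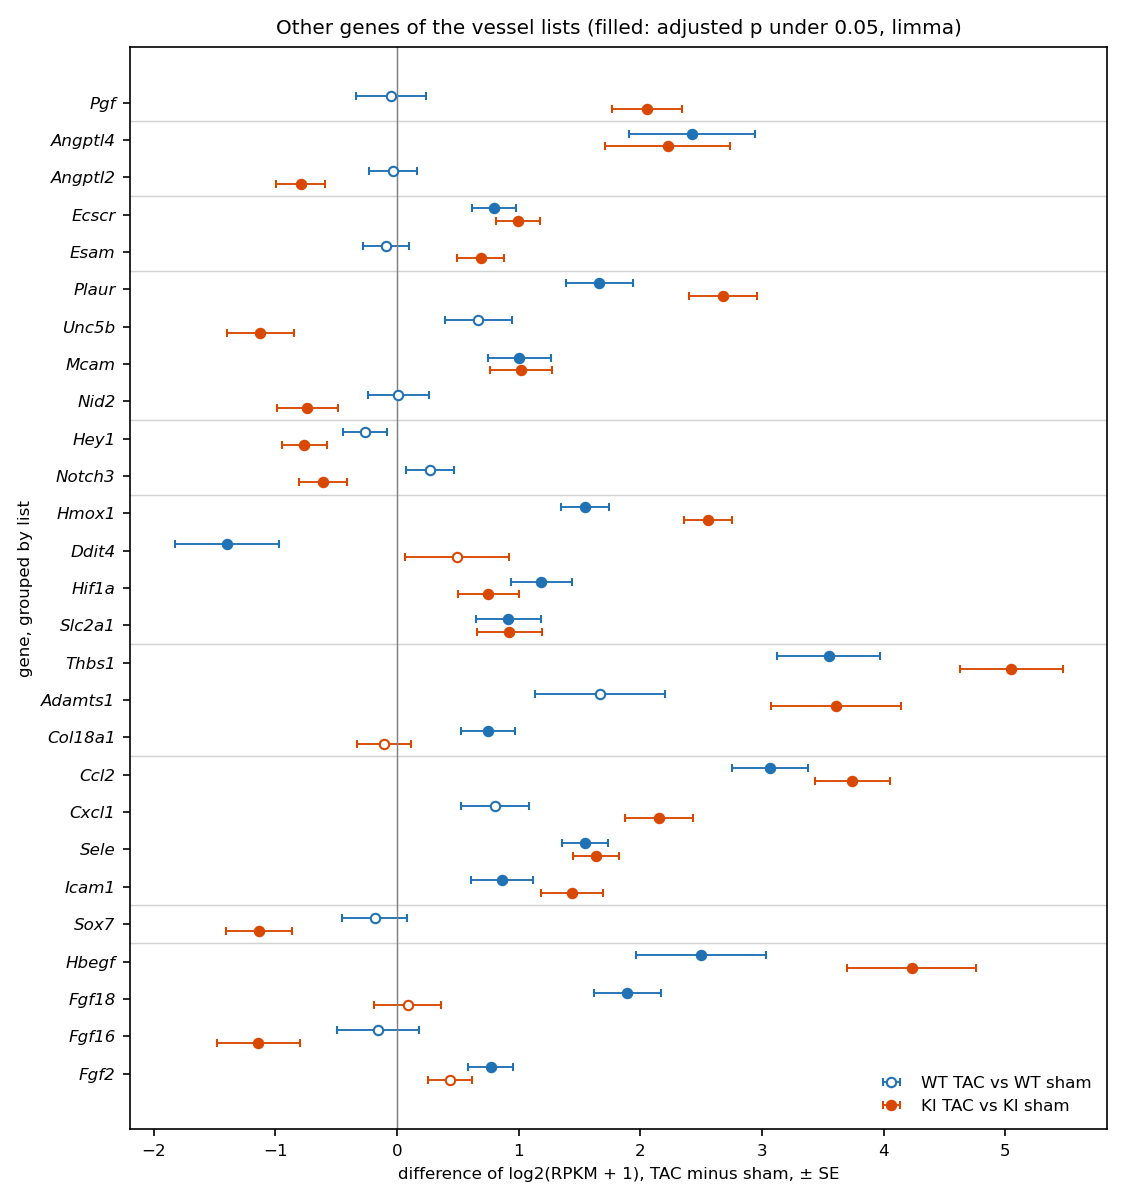
Difference of log2(RPKM + 1) after TAC in WT (blue) and KI (orange) hearts, with its standard error, for genes named from 10 pathway lists, which grey lines separate; filled points passed an adjusted p of 0.05 in limma. Pgf, Esam, Unc5b and Sox7 are filled in KI and open in WT, Fgf18 the reverse, and Thbs1 has the largest rise in both. A filled and an open point are no test between genotypes, and no gene passed the interaction in this fit.

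Levels of other cell types were read from marker lists, and their part in the results was not tested. The counts stand beside 6.96% of all genes higher and 4.60% lower in WT hearts, 8.57% and 14.7% in KI hearts, and 2.92% higher and 8.13% lower in KI than in WT TAC hearts. Of the mural cell markers, 2 were higher and 1 lower after TAC in WT hearts and 1 higher and 2 lower in KI hearts, and 2 of 10 (Cspg4 and Notch3) were lower in KI than in WT TAC hearts. Their summed level was 941 to 1280 RPKM in WT sham, 1492 to 1651 in WT TAC, 960 to 1145 in KI sham and 1466 to 1887 in KI TAC hearts. Of 8 tested macrophage markers, 3 rose in WT hearts, 1 fell in KI hearts and 2 were lower in KI than in WT TAC hearts. The mean log2(RPKM + 1) of the macrophage markers was 2.96 to 3.176 in WT sham, 3.40 to 4.14 in WT TAC, 3.04 to 3.12 in KI sham and 3.23 to 3.49 in KI TAC hearts, so both TAC groups lay above all sham hearts. Of 9 cardiomyocyte markers, 1 was lower after TAC in each genotype (Myh6 in WT, Pln in KI), and 2 (Tnni3 and Myl2) were higher in KI than in WT TAC hearts, beside 2.92% of all genes. Their median log2 difference was −0.50 in WT and 0.05 in KI hearts and 0.31 between TAC groups. Their mean log2(RPKM + 1) was 9.13 to 9.53 in WT TAC hearts, below all WT sham (9.63 to 9.87) and KI sham hearts (9.61 to 9.88), and 9.39 to 9.92 in KI TAC hearts, which overlapped with every group; their summed RPKM overlapped in all groups. Of 8 fibroblast markers, 1 was lower after TAC in each genotype and 0 differed between TAC groups, and 0 of 5 red blood cell markers passed in any of the 3 comparisons. Of 5 tested lymphatic markers, 1 rose in WT hearts, 2 rose and 1 fell in KI hearts, and 1 was lower in KI than in WT TAC hearts. The 7 lymphocyte markers and most adipocyte and atrial ones are no rows of the table used here. The atrial marker Nppa, which is also induced by wall stress, rose in WT hearts, did not pass in KI hearts and was lower in KI than in WT TAC hearts. The 2 atrial markers in the table summed to 35.8 to 74.0 RPKM in WT sham, 214 to 764 in WT TAC, 37.1 to 74.3 in KI sham and 62.7 to 202 in KI TAC hearts.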

How the data were processed

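Poly(A) RNA of 12 hearts was sequenced from strand-specific libraries as single reads, although the study's methods call the library paired-end. Per the submitters' notes, reads were trimmed with Trimmomatic 0.39, mapped to GRCm38 with HISAT2 2.2.1 and counted with HTSeq 0.6.1. The deposited values are RPKM; the unit follows from the values, since multiplied by GENCODE M21 exon lengths they sum to nearly the same total in each library. Low values were whole multiples of 1 read for 97.9% to 98.2% of those checked (tolerance 0.05 reads; at most 12.6% with a deliberately wrong step), which gave the depth of 23650194 to 32455178 reads.

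Genes with at least 1 RPKM in at least 3 mice were kept. log2(RPKM + 1) was fitted for the 4 groups over all 12 mice in limma 3.58.1 (R 4.3.3), with a variance trend and Benjamini-Hochberg adjustment. The authors used a test of counts; since the table holds none, limma-voom on the recovered reads was an alternative. Nothing in the sources used here says which mice shared a day of surgery. Members and lists were chosen with earlier results of these data known. From each of 10 pathway lists, up to 4 called genes with the largest change after TAC were named, and for 4 members the 3 most similar genes. A gene of the pathway lists was taken off them afterwards, for a reason unrelated to its values, and is not reported here; all list counts and medians are without it. The fit was tested on simulated data. Tables used Python 3.11.15, numpy 2.4.6, pandas 2.3.3 and matplotlib 3.10.9.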

Additional observations from a re-analysis of the deposited data

Results flagged for a closer look

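The TAC response of 2 genes differed between genotypes at an unadjusted p under 0.05 in the test of the difference itself. The interaction of genotype and surgery was −1.33 on the log2 scale for Angpt1 (unadjusted p = 0.00215, adjusted p = 0.150 from limma). Angpt1 was lower after TAC in KI hearts and had a higher mean after TAC in WT hearts, where the difference did not pass. For Aplnr the interaction was −1.49 (unadjusted p = 0.0496, adjusted p = 0.335), with lower means after TAC in both genotypes. Neither passed adjustment over all genes tested, of which 1668 had an unadjusted p under 0.05.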

How the results depend on the processing

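Under every alternative run, the count of members passing was 0 in WT hearts (5.30% to 15.2% of all genes) and between sham groups (0% to 0.0445%). It was also 0 for the interaction (0% to 2.14%, highest without WT TAC mouse 9). In KI hearts it was 2, went to 4 with quantile normalization (Vegfa and Pecam1 added, beside 25.0% of all genes) and lay between 1 and 3 when single mice were left out (12.9% to 26.5% of all genes). The called genes also changed: without KI sham mouse 1 the 1 call was Pecam1, higher after TAC, and neither Aplnr nor Angpt1 passed. Between TAC groups it was 1 and became 0 with quantile normalization (10.1% of all genes), median-ratio scaling (11.4%, log2 difference of Angpt1 −0.82) or a fit of only the compared groups, where the share of all genes also went from 11.0% to 1.92%. It was 0 to 2 without single mice (1.44% to 16.2% of all genes, lowest without WT TAC mouse 7 and 1.65% without KI TAC mouse 6), and 2 without both sham mice numbered 1 (12.6%; chosen, like the removal of the exon length trend, after seeing the data). With the exon length trend removed, 2 members passed in KI hearts (27.9% of all genes) and 1 between TAC groups (11.2%). Pecam1 was then called higher in both, and Angpt1 passed in neither. The cause was not tested. Same-numbered sham mice correlated at −0.22, −0.30 and 0.44 in their deviations. Deviations within groups of 3 cannot show whether same-numbered mice shared a day or batch. With the number as a block, 0 members passed between sham groups (0% of all genes).

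Of 542 values under alternatives, those of the 9 members after TAC in each genotype and those of Vegfa, Angpt1, Aplnr and Pecam1 between TAC groups and for the interaction, 513 stayed on their side of the threshold and 29 crossed it (15 lost a call, 14 gained one); 31 of the 513 turned in sign. Relative to the endothelial list, the WT difference turned to −0.0034 for Vegfa, −0.0052 for Pecam1 and −0.021 for Cdh5. With the exon length trend removed, it turned to −0.011 for Pecam1 and −0.0069 for Cdh5, and the KI difference to 0.053 for Kdr and 0.085 for Cdh5. With median-ratio scaling, Cdh5 turned to −0.017 in WT and 0.13 in KI hearts and Kdr to 0.088 in KI hearts. Without both sham mice numbered 1, the WT difference turned to 0.32 for Apln and 0.050 for Aplnr, and the KI difference to 0.25 for Kdr and 0.16 for Cdh5. Without single mice, the WT difference ranged from −0.013 to 0.13 for Vegfa, −0.054 to 0.50 for Kdr, −0.32 to 0.32 for Apln, −0.79 to 0.15 for Aplnr, −0.042 to 0.12 for Pecam1 and −0.054 to 0.16 for Cdh5, and the KI difference from −0.30 to 0.25 for Kdr, −1.26 to 0.077 for Apln and −0.17 to 0.16 for Cdh5. With no turn in sign, the WT difference ranged from 0.21 to 0.64 for Angpt1, −0.58 to −0.13 for Flt1 and 0.054 to 0.16 for Tek, and the KI difference from −1.05 to −0.65 for Angpt1, 0.038 to 0.27 for Flt1, −0.63 to −0.046 for Tek, −2.15 to −1.48 for Aplnr, −0.54 to −0.36 for Vegfa and 0.40 to 0.59 for Pecam1. With median-ratio scaling the KI difference was −0.31 for Vegfa, −0.18 for Tek and −0.29 for Apln, each nearer 0 by over 1.5 times; overlap of the groups under this scaling was also looked at after seeing the data. Depth limits Angpt1 and Angpt2 most, with as few as 114 and 40 reads.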
